A study of Homo sapiens with 2 samples.

Results

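Expression of 10 genes that encode subunits of the SWI/SNF chromatin remodelling complexes was examined in HCT116, a widely used epithelial line derived from a human colorectal tumour. The genes are SMARCA4, SMARCA2, SMARCC1, SMARCC2, SMARCB1, SMARCD1, ARID1A, ARID1B, ARID2 and PBRM1. They were found by gene symbol among 51640 symbols in the deposited tables, and each had a single row in both. RNA was sequenced from 2 cultures of the line, libraries PJ and PF. The cells grew in medium with serum, and the labels name no treatment and no genotype beyond the line itself. The submitters call them biological replicates, and the labels do not explain the letters. There is thus 1 group, with no condition to compare. Differences between the libraries are described with PJ over PF and without p-values.

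SWI/SNF complexes use ATP to slide or evict nucleosomes, and so open promoters and enhancers to transcription factors. Each complex holds a catalytic ATPase, SMARCA4 (BRG1) or its paralog SMARCA2 (BRM). The core is built from SMARCC1, SMARCC2, a SMARCD protein and, except in the non-canonical form, SMARCB1. Canonical BAF adds ARID1A or ARID1B, PBAF adds ARID2 and PBRM1, and non-canonical BAF is marked by BRD9 and lacks SMARCB1. Several of these genes, ARID1A among them, are recurrently mutated in cancers, and cells that lose one paralog often depend on the other.

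The values are FPKM, which correct the fragments assigned to a gene for transcript length and for the size of the library, so levels of different genes can be set side by side. The 95% bounds in brackets are the authors' own. They describe the estimate within 1 library and leave out variation between cultures. How many fragments each library holds is unknown. Of 8 epithelial marker genes 6 reached 1 FPKM in both libraries, while KRT20 and VIL1 missed the threshold. The libraries differed unevenly on this list, with EPCAM at 142.5 FPKM in PJ and 213 FPKM in PF, CDH1 (E-cadherin) at 1.80 FPKM in PJ and 21.9 FPKM in PF, and KRT19 at 325 FPKM in PJ and 306 FPKM in PF. Summed FPKM of the epithelial markers was 906 in PJ and 1531 in PF. Most of that difference lay in KRT8, at 280 FPKM in PJ and 760 FPKM in PF, the second of these below its bounds. Endothelial markers summed to 0.131 FPKM in PJ and 0.213 FPKM in PF, and fibroblast markers to 3.28 FPKM in PJ and 7.46 FPKM in PF, nearly all COL1A1, with LUM listed at 0 in PJ. Immune markers summed to 14.2 FPKM in PJ and 3.71 FPKM in PF, led by CD68, with PTPRC at 0.000256 FPKM in PJ. Neuronal markers summed to 139 FPKM in PJ and 117 FPKM in PF, made up mostly of genes that differed in opposite directions. TUBB3, a tubulin gene also used by dividing cells, was at 137 FPKM in PJ and 74.3 FPKM in PF, and SYT1 at 0.715 FPKM in PJ and 42.4 FPKM in PF. The part of these markers in the differences given here was not tested.

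All 10 genes were expressed, reaching 1 FPKM in both libraries, from 1.06 to 95.8 FPKM in PJ and from 3.88 to 93.2 FPKM in PF. Across all symbols 27.9% met this threshold, and across protein-coding symbols 57.3%. SMARCB1, SMARCD1, SMARCC1 and SMARCA4 were the most abundant, and SMARCA2 was the least. The median of the 10 genes was 14.5 FPKM in PJ and 23.1 FPKM in PF. For comparison, the median of protein-coding symbols that met it was 16.4 FPKM in PJ and 13.8 FPKM in PF. By mean level SMARCB1 lay at the 94.9 percentile of protein-coding symbols and SMARCA2 at the 45.9 percentile.

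**Figure D1:**
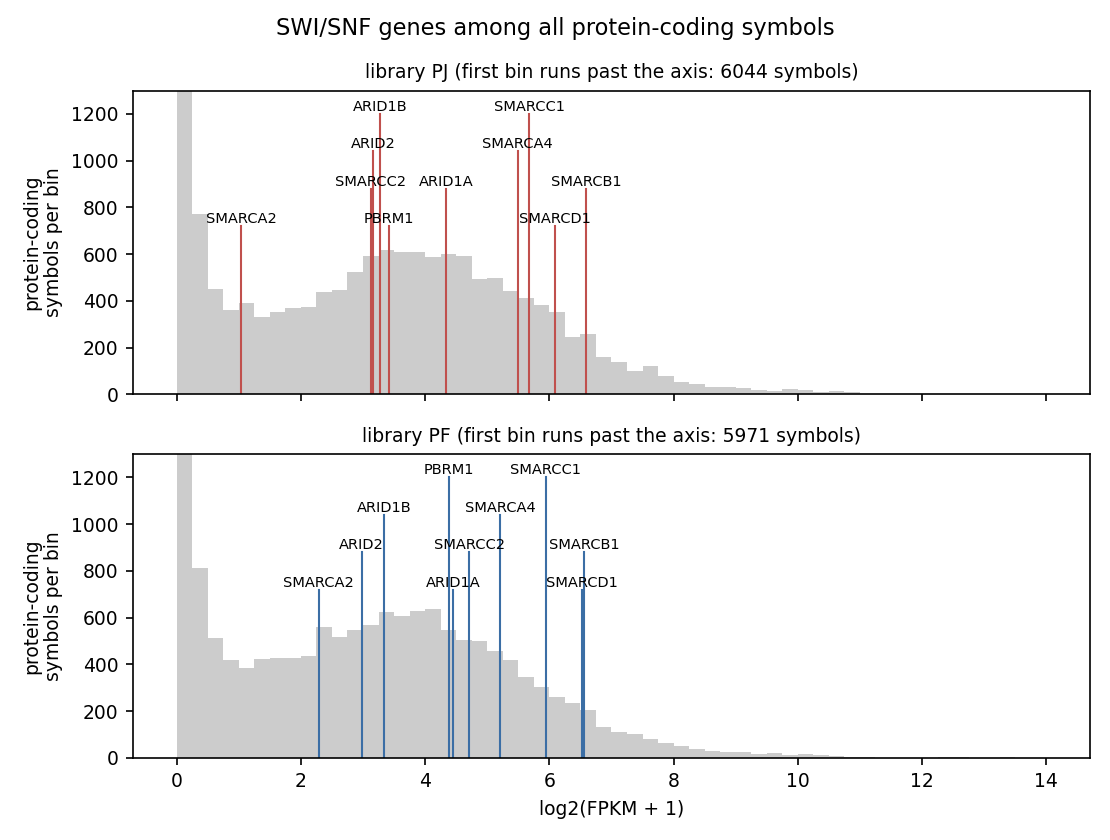
Histograms of log2(FPKM + 1) over all protein-coding symbols in library PJ (top) and library PF (bottom), with vertical lines at the SWI/SNF genes; line heights only separate the labels, and the first bin is cut by the axis. The core genes SMARCB1, SMARCD1 and SMARCC1 stand on the right shoulder in both libraries, SMARCA2 stands left of all other members, and SMARCC2 and PBRM1 stand further left in PJ than in PF.

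Of the ATPases, SMARCA4 (ENSG00000127616.11; hg19, chromosome 19, 11071598 to 11176071) was at 43.9 FPKM in PJ (42.6 to 45.2) and 35.9 FPKM in PF (34.7 to 37.1). SMARCA2 (ENSG00000080503.14; chromosome 9, 2015342 to 2193624) was at 1.06 FPKM in PJ (0.548 to 1.58) and 3.88 FPKM in PF (2.68 to 4.60). SMARCA4 was thus the far more abundant ATPase transcript in both libraries, and the lower bound of SMARCA2 in PJ lay below the 1 FPKM threshold. In bulk RNA, fewer cells with a transcript and less of it per cell cannot be told apart. SMARCA4 exceeded SMARCA2 41.4-fold in PJ and 9.26-fold in PF. Of the summed FPKM of both genes, SMARCA4 held 97.6% in PJ and 90.2% in PF. The log2 ratio of SMARCA4 over SMARCA2, on FPKM + 1, averaged 3.68 ± 1.08 (SD, n = 2).

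Sequences from the 250 bases before the first annotated start of each ATPase gene are shown. They were chosen because SMARCA4 and SMARCA2 differ more in level than the other paralog pairs among the 10 genes. They are RefSeq sequences on GRCh38.p14, plus strand, 5′ to 3′, and hold the part of the 250 bases before the start that lies outside every exon of GENCODE release 29. Capitals mark the GC box GGGCGG or its reverse complement CCGCCC.
SMARCA4 upstream, chr19:10960780-10960824: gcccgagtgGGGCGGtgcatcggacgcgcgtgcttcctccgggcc
SMARCA2 upstream, chr9:2015097-2015185: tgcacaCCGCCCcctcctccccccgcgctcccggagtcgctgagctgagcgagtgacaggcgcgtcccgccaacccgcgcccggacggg
Each stretch holds 1 GC box. The 250 bases end at position 10961029 for SMARCA4 and 2015346 for SMARCA2, so neither stretch reaches the start. Within the full 250 bases SMARCA4 had 4 GC boxes and 44 CpG dinucleotides, and SMARCA2 had 2 GC boxes and 29 CpG. Over 35116 RefSeq promoter windows of that length, 42.6% held a GC box on either strand and the median number of CpG was 11. RefSeq lists 4 starts for SMARCA2, and the windows before the other 3 held 0, 1 and 8 CpG and no GC box. The window before the second SMARCA4 start held 4 CpG and no GC box. The deposited values are summed over all transcripts of a gene, so they do not tell which start was used. RefSeq windows were matched for 7 of the 10 genes; SMARCC1, SMARCC2 and ARID2 had none.

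The scaffold subunits SMARCC1 (BAF155) and SMARCC2 (BAF170) pair with each other or with themselves to hold the core together. SMARCC1 (ENSG00000173473.6; chromosome 3, 47626762 to 47823596) was at 50.3 FPKM in PJ (49.8 to 52.3) and 60.5 FPKM in PF (59.2 to 61.8). SMARCC2 (ENSG00000139613.7; chromosome 12, 56556767 to 56583351) was at 7.73 FPKM in PJ (6.97 to 8.68) and 25.2 FPKM in PF (23.3 to 27.2). SMARCC1 was the higher of the pair in each library, and SMARCC2 was the member with the widest library difference on the log2(FPKM + 1) scale. SMARCC1 exceeded SMARCC2 6.51-fold in PJ and 2.40-fold in PF, so that its share of their summed FPKM was 86.7% in PJ and 70.6% in PF.

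The remaining core members were high in both libraries. SMARCB1 (SNF5; ENSG00000099956.13; chromosome 22, 24129150 to 24176703), which helps to anchor the complex on the nucleosome, was at 95.8 FPKM in PJ and 93.2 FPKM in PF. Both estimates lay above their own bounds (83.5 to 89.1 in PJ and 80.6 to 86.4 in PF). SMARCD1 (BAF60A; ENSG00000066117.10; chromosome 12, 50478755 to 50494495), which links the complex to transcription factors, was at 66.9 FPKM in PJ (61.6 to 67.6) and 90.9 FPKM in PF, the second of these also above its bounds (80.8 to 89.3). Its paralog SMARCD2 was at 84.0 FPKM in PJ and 92.1 FPKM in PF. The other paralog, SMARCD3, was at 14.9 FPKM in PJ and 16.1 FPKM in PF, both slightly above their bounds. SMARCD1 and SMARCD2 were thus near each other, with SMARCD3 well below both. SMARCD1 held 40.4% of the summed FPKM of the 3 paralogs in PJ and 45.6% in PF, and SMARCD2 held 50.7% in PJ and 46.3% in PF.

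**Figure D2:**
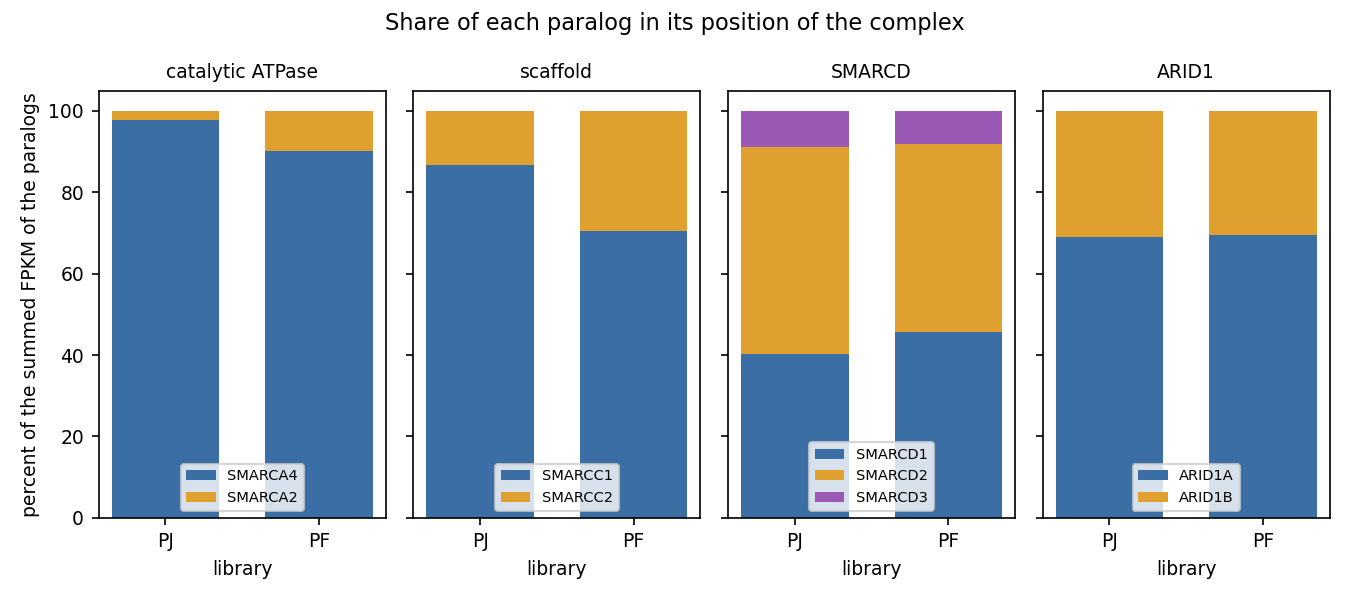
Stacked bars of the percent of summed FPKM held by each paralog in 4 positions of the complex, library PJ left and library PF right in each panel. SMARCA4 and SMARCC1 hold larger shares in PJ than in PF (97.6% against 90.2%, and 86.7% against 70.6%), while the ARID1A share is 69.0% in PJ and 69.6% in PF.

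The subunits that define canonical BAF were at intermediate levels. ARID1A (BAF250A; ENSG00000117713.13; chromosome 1, 27022524 to 27108595), a large DNA-binding subunit, was at 19.2 FPKM in PJ (18.5 to 20.1) and 20.9 FPKM in PF (20.2 to 21.7). ARID1B (BAF250B; ENSG00000049618.15; chromosome 6, 157099063 to 157530401), its mutually exclusive paralog, was at 8.66 FPKM in PJ (8.16 to 9.21) and 9.11 FPKM in PF (8.62 to 9.61). Both genes were slightly lower in PJ, and their proportion hardly moved: ARID1A exceeded ARID1B 2.22-fold in PJ and 2.29-fold in PF. The log2 ratio of ARID1A over ARID1B averaged 1.09 ± 0.03 (SD, n = 2), the smallest spread of the 4 paralog ratios computed.

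Of the PBAF subunits, ARID2 (BAF200; ENSG00000189079.10; chromosome 12, 46123448 to 46301823), which takes the place of the ARID1 proteins, was at 7.96 FPKM in PJ (7.50 to 8.58) and 6.89 FPKM in PF (6.45 to 7.33). It made up 22.2% of the summed FPKM of ARID1A, ARID1B and ARID2 in PJ and 18.7% in PF. PBRM1 (BAF180; ENSG00000163939.14; chromosome 3, 52579368 to 52719933), whose bromodomains read acetylated histones, was at 9.67 FPKM in PJ (8.63 to 10.8) and 19.9 FPKM in PF (18.3 to 21.7). The PBAF genes thus differed in opposite directions, ARID2 being higher and PBRM1 lower in PJ, and the direction of ARID2 turned when the general shift between the libraries was divided out.

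**Figure D3:**
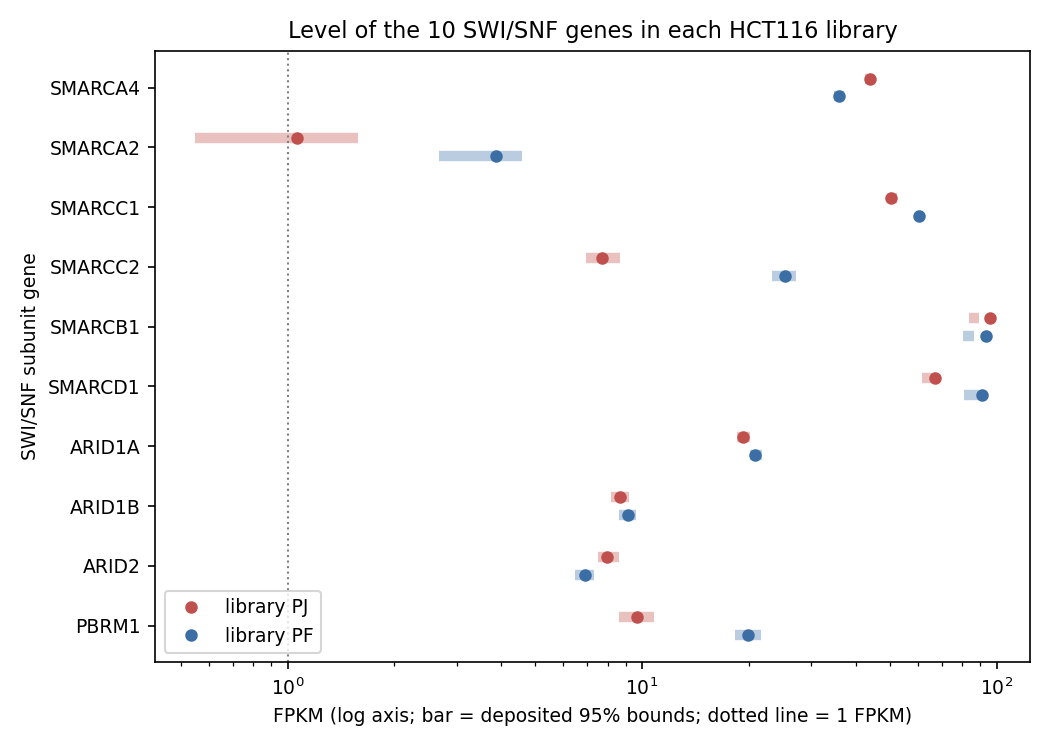
FPKM of each SWI/SNF gene on a log axis, library PJ above library PF, with bars for the deposited 95% bounds and a dotted line at 1 FPKM. SMARCA2, SMARCC2 and PBRM1 have bounds well apart with PJ on the left, and both SMARCB1 points and the SMARCD1 point of PF lie to the right of their bounds.

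Ordered by mean level the genes ran SMARCB1 (94.5 ± 1.82 FPKM, SD, n = 2), SMARCD1 (78.9 ± 17.0), SMARCC1 (55.4 ± 7.23), SMARCA4 (39.9 ± 5.64), ARID1A (20.1 ± 1.16), SMARCC2 (16.5 ± 12.4), PBRM1 (14.8 ± 7.27), ARID1B (8.89 ± 0.323), ARID2 (7.42 ± 0.756) and SMARCA2 (2.47 ± 1.995). Of the 9 neighbouring pairs in this order, 4 had bounds apart in the same order in both libraries: SMARCD1 above SMARCC1, SMARCC1 above SMARCA4, SMARCA4 above ARID1A, and ARID2 above SMARCA2. The genes from ARID1A to ARID2 formed a middle group in which no neighbours were apart in the same order in both libraries. There SMARCC2 was above ARID1A in PF and below it in PJ, with bounds apart each time. SMARCC2 was also below PBRM1 in PJ, where their bounds overlapped. SMARCB1 and SMARCD1 had separate bounds in PJ alone.

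Between the libraries, SMARCC2, SMARCA2 and PBRM1 stood out as lower in PJ. SMARCC2 was 3.27-fold lower in PJ, with a log2 ratio of -1.59 on the FPKM + 1 scale. SMARCA2 was 3.66-fold lower, and its log2 ratio was -1.24, a scale that understates the change of low genes. PBRM1 was 2.06-fold lower, with a log2 ratio of -0.97, just short of 2-fold on that scale. SMARCC2 and SMARCA2 were therefore the 2 of 10 genes at least 2-fold lower in PJ, and 0 of 10 were 2-fold higher. Among 15736 symbols averaging at least 1 FPKM, 5.22% were at least 2-fold lower in PJ and 10.4% higher. Only 2.17% of those symbols had a ratio lower than that of SMARCC2, 3.43% lower than that of SMARCA2, and 5.45% lower than that of PBRM1. With 1 library on each side, no difference has a replicate check.

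The other members differed less. SMARCD1 had a log2 ratio of -0.44, SMARCC1 of -0.26, ARID1A of -0.11 and ARID1B of -0.07. SMARCA4 was higher in PJ, at 0.28. ARID2 at 0.18 and SMARCB1 at 0.04 were also higher as deposited, but both turned negative, at -0.03 and -0.21, once the shift between the libraries was divided out. That shift is a median PJ to PF ratio of 1.19, or 0.25 on the log2 scale, over symbols that reached 1 FPKM in both. Relative to it 9 of the 10 lay lower in PJ, and SMARCA4, at 0.04, lay higher. The median of all symbols averaging at least 1 FPKM was 0.006 on this scale, so lying lower was common by construction. Of the other genes described below, 10 of 17 SWI/SNF subunits and 10 of 14 remodeller ATPases lay lower too. The median was -0.43 for the members and -0.43 for these ATPases, but -0.05 for these other SWI/SNF subunits. On this scale PBRM1 joined SMARCC2 and SMARCA2, so that 3 of 10 were at least 2-fold lower and 0 higher, beside 7.14% of all symbols lower and 6.29% higher. As deposited, the median log2 ratio of the 10 genes was -0.19, against 0.22 over all symbols averaging at least 1 FPKM.

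The deposited bounds did not overlap between the libraries for 8 of the 10 genes, with 6 lower in PJ and 2 (SMARCA4 and ARID2) higher. SMARCB1 and ARID1B had overlapping bounds. Over 15577 symbols with a single row and the same minimum mean, bounds were apart for 18.3% with PJ lower and for 44.5% with PJ higher. With the shift divided out, bounds were apart for 8 members, all lower in PJ, beside 28.3% of those symbols lower and 29.9% higher. Separate bounds were thus common among all genes.

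**Figure D4:**
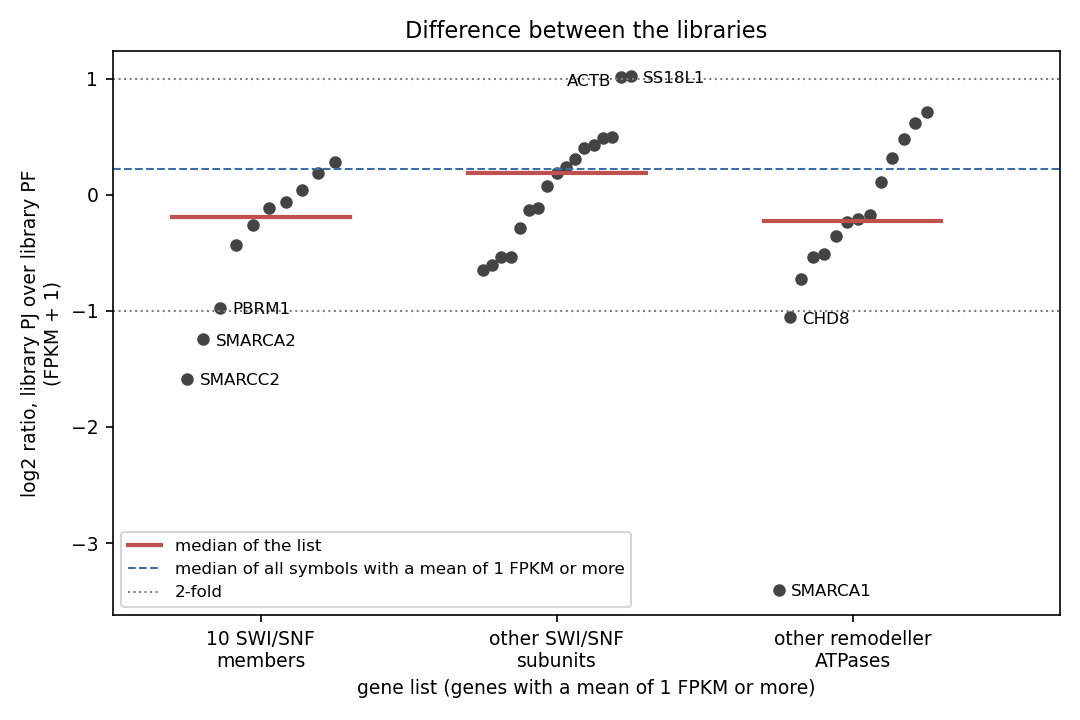
Log2 ratio of library PJ over library PF, on FPKM + 1, for each gene averaging at least 1 FPKM in the SWI/SNF member list, the other SWI/SNF subunits and the ATPases of other remodellers. Red bars mark list medians (-0.19, 0.19 and -0.22), the dashed line the median of all symbols (0.22), and dotted lines 2-fold; SMARCA1 lies lowest at -3.40.

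Several members overlap other genes on the chromosome, and the labels do not say whether counting used strand. SMARCC2 overlaps 514 bp of MYL6, a myosin light chain gene on the opposite strand, which was at 525 FPKM in PJ and 381 FPKM in PF. MYL6 was thus far more abundant than SMARCC2 and differed in the other direction. A noncoding gene on the same strand, RP11-977G19.5, named for its overlap although it was under 1 FPKM, covers the whole 26585 bp of SMARCC2. It was listed at 0.0499 FPKM in PJ and 0.513 FPKM in PF. Noncoding genes within SMARCA2 and SMARCC1 had much the same values. RP11-264I13.2 in SMARCA2 was at 0.0669 FPKM in PJ and 0.504 FPKM in PF. RP11-717D12.1 in SMARCC1 was at 0.0534 FPKM in PJ and 0.505 FPKM in PF. PBRM1 shares 4762 bp with GNL3, a nucleolar protein gene, at 91.0 FPKM in PJ and 157 FPKM in PF, and 33886 bp with SMIM4, at 89.1 FPKM in PJ and 18.3 FPKM in PF, both on the opposite strand. These neighbours of PBRM1 differed in opposite directions between the libraries, and reads of the shared stretches cannot be told apart without strand. Within SMARCC1 lies a processed pseudogene, RP11-395P16.1, at 0.828 FPKM in PJ and 1.27 FPKM in PF. No gene overlapping SMARCA2 reached 1 FPKM in either library.

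The surroundings of the 3 lower genes are set beside the median log2 ratio of all symbols averaging at least 1 FPKM, which was 0.22. Genes averaging at least 1 FPKM that start within 1 Mb had a median log2 ratio of 0.29 around SMARCC2 (54 genes), 0.31 around PBRM1 (36 genes) and 0.55 around SMARCA2 (3 genes). Around SMARCC2, 6 of these genes were at least 2-fold lower in PJ and 6 higher. Around PBRM1, 1 was lower and 3 were higher, and around SMARCA2 there were 0 of each. Among all tested symbols 5.22% were lower and 10.4% higher. The part of the surroundings in the differences of the 3 genes was not tested.

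The rest of the SWI/SNF machinery was mostly expressed as well. Of 21 other subunit genes, 17 reached 1 FPKM in both libraries, and the same 27.9% of all symbols and 57.3% of protein-coding symbols apply. ACTB, the cytoplasmic actin that is also a subunit, was at 1686 FPKM in PJ and 836 FPKM in PF, with both estimates above their bounds. SMARCD2, given above, and SMARCE1 (BAF57), an HMG-box core subunit at 62.6 FPKM in PJ and 91.1 FPKM in PF, had the next highest means. The lowest mean was that of ACTL6B, the actin-related subunit of neurons, at 0.00879 FPKM in PJ and 0.0155 FPKM in PF. Its counterpart in dividing cells, ACTL6A, was at 53.8 FPKM in PJ and 47.0 FPKM in PF, both above their bounds. The other 3 genes that missed the threshold, named after their values were seen, were DPF3, BCL11A and BCL11B. SS18L1 (CREST), the paralog of SS18 in neuronal complexes, was at 9.86 FPKM in PJ (9.07 to 10.6) and 4.36 FPKM in PF (3.90 to 4.81), and SS18 at 39.7 FPKM in PJ and 31.9 FPKM in PF.

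Among the 17 subunits averaging at least 1 FPKM, 0 were at least 2-fold lower in PJ and 2 were higher, SS18L1 (log2 ratio 1.02) and ACTB (1.01). The count of 2 in 17 is near the 10.4% of all tested symbols that were 2-fold higher, and 5.22% of symbols were lower. Neither passed 2-fold once the shift was divided out (0.80 and 0.76). The median log2 ratio of these 17 genes was 0.19, near that of all symbols. The PBAF partners of PBRM1 differed in opposite directions. PHF10, a PHD finger protein, was at 26.2 FPKM in PJ and 18.2 FPKM in PF, and BRD7, a bromodomain protein, at 16.1 FPKM in PJ and 25.1 FPKM in PF. BRD9, the bromodomain subunit of non-canonical BAF, was at 26.1 FPKM in PJ and 24.7 FPKM in PF, with overlapping bounds. PHF10, BRD7, BRD9, ACTL6A and SS18 were chosen for their roles after their values were seen.

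The ATPases of the ISWI, CHD and INO80 families, which remodel nucleosomes in complexes of their own, were compared with SMARCA4 and SMARCA2. Of these 14 genes, 13 reached 1 FPKM in both libraries, beside 27.9% of all symbols and 57.3% of protein-coding symbols. CHD4, the ATPase of the NuRD repressor complex, was at 136 FPKM in PJ and 88.4 FPKM in PF, both above their bounds. CHD2 was at 78.5 FPKM in PJ and 100.7 FPKM in PF, and SMARCA5 (SNF2H), the ISWI ATPase, at 43.7 FPKM in PJ and 26.3 FPKM in PF. SMARCA4 was thus at the level of SMARCA5 in PJ, where their bounds overlapped, and above it in PF. CHD5 had the lowest mean, at 3.16 FPKM in PJ and 2.85 FPKM in PF. It was above SMARCA2 in PJ, with bounds apart, and below SMARCA2 in PF, where their bounds overlapped.

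Among these ATPases 2 of 14 were at least 2-fold lower in PJ and 0 higher, beside 5.22% of all tested symbols lower and 10.4% higher. SMARCA1 (SNF2L; ENSG00000102038.10; chromosome X, 128580480 to 128657477), the second ISWI ATPase, was at 0.619 FPKM in PJ (0.438 to 0.815) and 16.1 FPKM in PF (15.1 to 17.1). It was 26.0-fold lower in PJ, with a log2 ratio of -3.40, and 0.578% of all tested symbols had a lower ratio. CHD8, which is known to bind beta-catenin, was at 16.2 FPKM in PJ and 34.7 FPKM in PF (log2 ratio -1.06), the second of these above its bounds. In both the SWI/SNF and the ISWI pair the less abundant ATPase gene was the lower one in PJ. The more abundant one, SMARCA4 or SMARCA5, was higher in PJ as deposited. Of all tested symbols 54.7% had a lower ratio than SMARCA4. With the shift between the libraries divided out, the log2 ratio was 0.04 for SMARCA4 and 0.47 for SMARCA5, so SMARCA4 hardly differed. Whether the pairs share a pattern was not tested.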

How the data were processed

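RNA of 2 HCT116 cultures was sequenced as paired-end libraries on an Illumina HiSeq, per the labels' protocols. TopHat2 2.0.8b, TopHat and Cufflinks were used with hg19, per the submitters' processing notes. Neither the Cufflinks version nor the annotation is given in the sources used here. Each deposited table holds FPKM per gene, 95% bounds and an estimation status, per the file headers. Because FPKM is relative to the library total, very abundant RNAs can shift all other values.

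Rows with status FAIL (20 in PJ, 23 in PF, no member) were treated as missing, and rows sharing a symbol were summed, giving 51609 symbols with a value in both libraries. Gene type and strand came from GENCODE release 29, matched by identifier for 88.7% of 56586 rows. The difference between libraries is log2 of FPKM + 1 in PJ divided by FPKM + 1 in PF. Starts are printed counted from 1. The 2-fold count was tested on simulated data with planted differences. That test does not tell how reliable calls close to 2-fold, such as those of PBRM1, ACTB and SS18L1, are in these libraries. Nor does it tell this for low genes such as SMARCA2. With 2 libraries of 1 group, no test between conditions was possible. Members and lists were chosen with earlier results of these data known. Named genes are all members, SMARCD2 and SMARCD3, and of each other list the 3 highest means, the lowest and all 2-fold differences, plus overlapping genes at 1 FPKM or more. Outside this rule, RP11-977G19.5, DPF3, BCL11A, BCL11B, PHF10, BRD7, BRD9, ACTL6A, SS18 and the marker genes were named after their values were seen. Python 3.11.15, numpy 2.4.6, pandas 2.3.3, scipy 1.17.1 and matplotlib 3.10.9 were used. Normal colon libraries, which the design text names, were not analysed here.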

Additional observations from a re-analysis of the deposited data

How the results depend on the processing

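All 10 genes stayed at 1 FPKM or more in each library alone, and 9 were at 5 FPKM or more in both, SMARCA2 being the exception. The count of 2 genes at least 2-fold apart became 3 with a pseudocount of 0.1, with none, or with the median ratio divided out, each time by PBRM1 (log2 ratios -1.04, -1.04 and -1.20). The median log2 ratio of the members was -0.19 as deposited, -0.19 with a pseudocount of 0.1 or none, -0.43 with the median ratio divided out and -0.20 scaled to the protein-coding sum. ARID2 and SMARCB1 changed sign only when the median ratio was divided out. The log2 ratio of ARID1A over ARID1B was 1.17 with no pseudocount or one of 0.1. Neighbouring members with bounds apart numbered 6 in PJ alone and 7 in PF alone, against 4 in the same order in both. With the median ratio divided out, an alternative chosen after seeing the data, 0 other subunits were 2-fold apart, against 2 as deposited. No paired analysis was possible because there is 1 group. Depth is unknown, which limits the values of SMARCA2 most.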
